A study of Mus musculus with 178 samples.

Results

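The 10 checkpoint genes described here were followed in mouse blood through treatment with an antibody against PD-1. They were the PD-1 receptor gene Pdcd1, its ligand genes Cd274 (PD-L1) and Pdcd1lg2 (PD-L2), the receptor genes Ctla4, Lag3, Havcr2 (TIM-3), Tigit and Icos, and the transcription factor genes Tox and Foxp3. The genes were chosen by symbol as the drug's target, its ligands and related checkpoint genes, and each matched 1 row of the deposited count table, which holds 55450 genes. Whole blood of 45 C57BL/6J mice aged 6 to 8 weeks, 15 responders and 30 non-responders, had been sequenced as 178 bulk libraries. All mice carried tumors of 4MOSC1, a syngeneic mouse oral squamous carcinoma line, injected into the tongue or buccal mucosa, and all received the rat anti-mouse PD-1 clone RMP1-14, so no untreated arm was measured. Blood was drawn behind the eye into TRIzol on Day 4, before treatment, and on Days 9, 17 and 24, and response was called from tumor size. The sources place the first dose either on Day 4 after the first bleed or on Day 7. Responders gave 15, 15, 14 and 15 libraries on Days 4, 9, 17 and 24, and non-responders gave 29, 30, 30 and 30.

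PD-1 is an inhibitory receptor that activated T cells place on their surface, and its engagement by PD-L1 or PD-L2 dampens signalling through the T cell receptor and CD28. PD-L1 is carried by many myeloid, lymphoid and tumor cells and is induced by interferon gamma, whereas PD-L2 is largely restricted to dendritic cells and macrophages. CTLA-4, LAG-3, TIM-3 and TIGIT restrain T cells through ligands of their own, ICOS is a costimulatory relative of CD28, TOX is a nuclear factor of exhausted T cells and Foxp3 defines regulatory T cells.

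The total estimated count per library ran from 26058944 to 82208651, with a median of 51971360.5, and haemoglobin genes took 68.7% to 88% of it. What remained was 4535309 to 22174654 counts per library. All 12 T cell markers, 8 monocyte markers and 8 neutrophil markers were detected in the blood of each group. The Day 24 library of a non-responder, D24_7224 (day and ear tag), stood apart, with a scaling factor of 0.0848 against 0.266 for the next lowest and 96 counts over the 3 CD3 genes. Leaving it out changed no call for the 10 genes in the comparisons of Day 24 or of the changes from Day 4. The ear tags had either 3 or 4 digits, without a stated meaning, and response was unevenly spread over these series: 11 of 15 responders but 7 of 30 non-responders had a 4-digit tag.

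Of the 10 genes (GENCODE M21, GRCm38), Ctla4 lies at chr1:60887000-60915832, Icos at chr1:60977927-61000320 and Pdcd1 at chr1:94038305-94052553, Tox at chr4:6686353-6991557, Lag3 at chr6:124904361-124911705, Havcr2 at chr11:46454935-46481255, Tigit at chr16:43648867-43664146 and Foxp3 at chrX:7573644-7595245. Counts are over whole genes. The ligand genes lie side by side on mouse chromosome 19 (GRCm38), both on the plus strand, Cd274 at chr19:29367455-29388095 and Pdcd1lg2 at chr19:29410919-29471161, with 22.8 kb between them. Their upstream windows are shown because these neighbors had unequal levels in blood. Each window is the 250 bases before the RefSeq start (GRCm38.p6), at chr19:29367188-29367437 for Cd274 and chr19:29410669-29410918 for Pdcd1lg2, 5′ to 3′ on the plus strand, with CpG dinucleotides in capitals.
Cd274: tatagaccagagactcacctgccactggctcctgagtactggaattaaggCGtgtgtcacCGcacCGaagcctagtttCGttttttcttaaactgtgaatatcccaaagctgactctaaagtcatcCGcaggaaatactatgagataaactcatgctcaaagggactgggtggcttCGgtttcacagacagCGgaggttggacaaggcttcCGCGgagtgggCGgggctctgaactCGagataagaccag
Pdcd1lg2: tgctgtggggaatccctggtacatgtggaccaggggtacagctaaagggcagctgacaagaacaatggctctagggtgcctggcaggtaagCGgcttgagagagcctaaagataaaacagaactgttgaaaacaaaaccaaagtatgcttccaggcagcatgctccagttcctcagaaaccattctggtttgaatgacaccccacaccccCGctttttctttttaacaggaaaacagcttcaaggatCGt
The Cd274 window held 11 CpG dinucleotides and the Pdcd1lg2 window held 3, against a median of 6 over 32851 such windows of 27025 mouse genes. Of all windows, 64.4% held fewer than the Cd274 window and 29% held fewer than the Pdcd1lg2 window. Neither strand of these windows held the interferon response core GAAANNGAAA, which 2.98% of all windows held, or the gamma-activated site TTCNNNGAA, which 7.02% held. Among 8 windows found for 7 of the 10 genes, the first motif was in 0 and the second in 1, a Foxp3 window. Lag3, Icos and Tox had no entry. These are matches of letters and not sites of binding.

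Cd274 was the most abundant of the 10 genes in blood per transcript length, and Pdcd1 itself was the least. Cd274 averaged 1.08 ± 0.58 TPM (SD, n = 178 libraries), followed by Icos at 0.435 ± 0.191, Havcr2 at 0.315 ± 0.196, Foxp3 at 0.270 ± 0.117 and Tox at 0.238 ± 0.124. Ctla4 averaged 0.232 ± 0.114 TPM, Tigit 0.225 ± 0.132, Pdcd1lg2 0.175 ± 0.0878, Lag3 0.0643 ± 0.0396 and Pdcd1 0.0483 ± 0.0298. Cd274 stood above Icos, and Pdcd1lg2 above Lag3, by more than the SD of either gene, and the other neighbors in this order differed by less than their SDs. The deposited TPM values include haemoglobin transcripts, so a TPM level here is a share of all blood mRNA.

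The reads behind these levels set what could be measured. Cd274 had 37 to 1603 estimated counts per library (median 426), Icos 16 to 497 (median 154.5), Foxp3 4 to 386 (median 107.5), Tox 6 to 366 (median 100.5) and Havcr2 8 to 291 (median 78.5). Ctla4 had 4 to 146 counts (median 45.5), Pdcd1lg2 0 to 92 (median 28), Tigit 0 to 69 (median 16), Lag3 0 to 37 (median 12) and Pdcd1 0 to 31 (median 9). All 10 genes passed the filter on low counts in each main comparison. Among 4-digit mice alone on Day 4, 9 passed, without Pdcd1. Pdcd1 and Lag3 were nevertheless close to the floor, with fewer than 10 counts in 94 and 63 of 178 libraries and 0 counts in 4 and 2. Variance was taken around the mean of each group of response and day, scaled to library size. Counting error alone would give 37.5% of this variance for Pdcd1 and 47.1% for Pdcd1lg2, against 4.60% for Cd274.

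**Figure D1:**
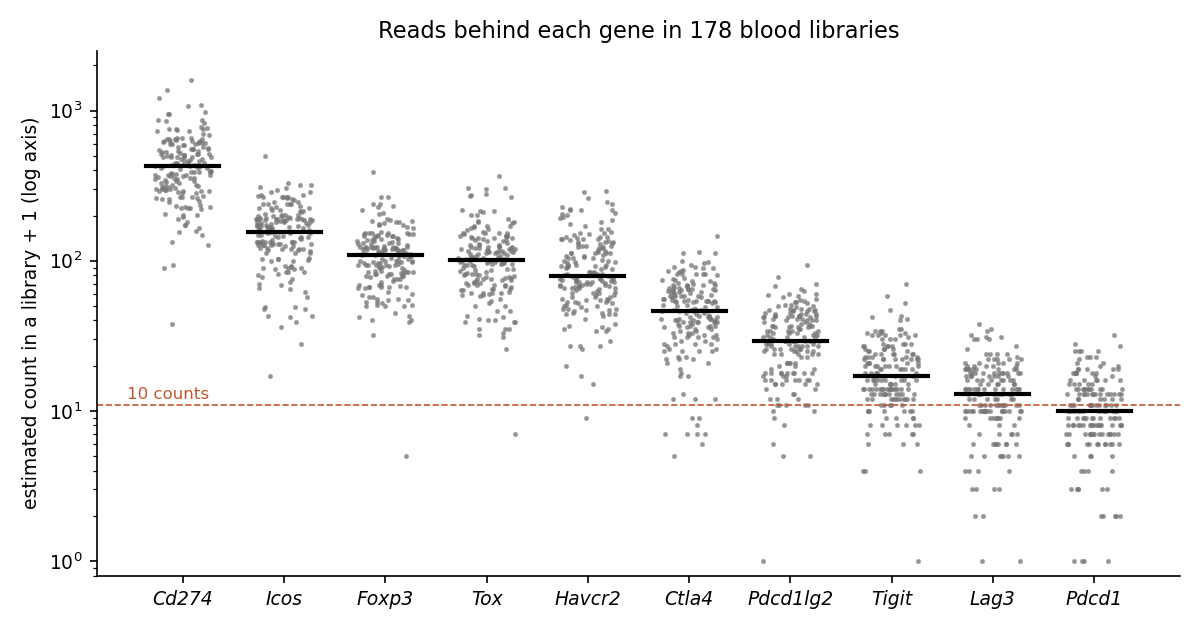
Estimated counts of the 10 genes in each of 178 blood libraries, plotted as count + 1 on a log axis, with bars at the medians and a dashed line at 10 counts. Cd274 lies highest, with a median of 426, and Pdcd1 lowest, with a median of 9 and 94 libraries below the dashed line.

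Cd274 and Havcr2 were higher and Tox was lower on Day 9 than on Day 4 in both responders and non-responders, and Ctla4 and Foxp3 changed in non-responders on each later day, Ctla4 upward and Foxp3 downward. In edgeR's quasi-likelihood test, with p adjusted over all genes by Benjamini-Hochberg and a limit of 0.05, 4 of the 10 genes changed by Day 9 in responders (3 higher, 1 lower), where 27.7% of all genes tested were called. By Day 17, 4 had changed in responders (2 higher, 2 lower; background 25.6%), and by Day 24 the count was 0 (background 17.4%), with 3 genes at an unadjusted p under 0.05 and 0 called by DESeq2 or by limma on TPM. In non-responders 6 genes changed by Day 9 (4 higher, 2 lower; background 50.8%), 5 by Day 17 (3 higher, 2 lower; background 46.1%) and 4 by Day 24 (2 higher, 2 lower; background 48.7%). The median log2 change of the 10 genes was 0.21, 0.16 and -0.038 in responders and -0.049, 0.14 and 0.088 in non-responders on Days 9, 17 and 24, with the median of all genes within 0.014 of 0. The shares of the 10 genes called thus lay on both sides of the background. On the TPM scale (log2 of TPM + 0.1), which spans 8 of the 10 genes, limma called 0 in responders on each day. Over all 11269 genes it called 256, 59 and 65 in responders. In non-responders it called 2 higher and 2 lower on Day 9, 4 lower on Day 17 and 6 lower on Day 24. Over all 11738 genes it called 1861, 6456 and 8044 in non-responders, with medians of all genes of -0.049, -0.315 and -0.388. The 3 comparisons of a group share that group's Day 4 libraries. Because the samples are bulk blood, fewer cells of a type and less RNA per cell cannot be told apart in any of these changes.

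**Figure D2:**
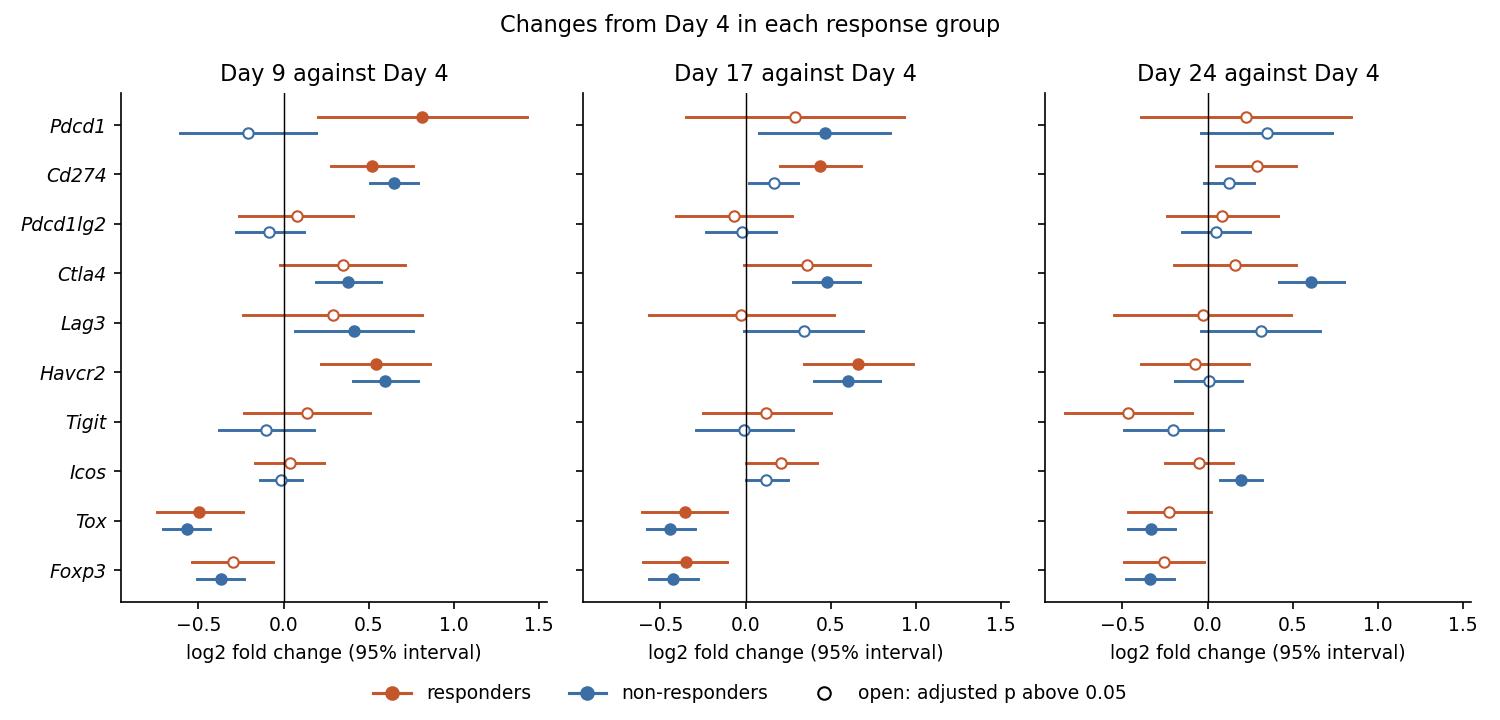
Log2 fold changes from Day 4 to Days 9, 17 and 24 (x axis, with 95% intervals) for each gene in responders and non-responders, filled where the adjusted p was at most 0.05. Tox lies left of 0 and Cd274 right of 0 on each day in both groups, while Pdcd1 on Day 9 lies at 0.82 in responders and at -0.21 in non-responders, both series of ear tags pooled, a difference of changes that was not called (adjusted p = 0.862).

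Whether the course itself depended on response was tested as an interaction between response and day in a fit of all libraries. None of the 10 genes passed: the count was 0 on Day 9 (background 0%), 0 on Day 17 (background 0.351%) and 0 on Day 24 (background 3.76%) by edgeR, whose calls give these backgrounds. DESeq2 also called 0 of the 10 genes on each day, and over all 13688 genes it called 88 on Day 17 and 874 on Day 24 where edgeR called 48 and 515. The edgeR count of Day 24 fell to 154 without library D24_7224 and to 212 with the mouse as a block. At an unadjusted p under 0.05 the counts were 1, 0 and 2 genes. The gene on Day 9 was Pdcd1, whose change was larger in responders by 1.03 on the log2 scale (SE 0.37, p = 0.00523, adjusted p = 0.862). Those on Day 24 were Ctla4 and Icos, whose changes were lower in responders, as described with their levels. On TPM limma called 0 on Days 9 and 17 and other genes on Day 24, where the change was higher in responders for Cd274 with a pseudocount of 0.1 (0.694, adjusted p = 0.0499) and for Tox and Foxp3 with a pseudocount of 1 (0.147 and 0.137, adjusted p = 0.0475 and 0.049). The median of all genes on Day 24 was itself 0.524 with a pseudocount of 0.1 and 0.229 with a pseudocount of 1. Over all 11598 genes limma called 2159 and 2001. Tox and Foxp3 thus lay below the median of all genes.

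Responders and non-responders were compared directly on each day with the same test and a minimum fold change of 1.5. On Day 4, before treatment, 0 of the 10 genes differed (background 4.21%) by edgeR and by DESeq2, with 0 at an unadjusted p under 0.05. A Wilcoxon test on TPM called 5 of the 8 genes it tested, where it called 8445 of all 11660 genes. On Day 9 only Pdcd1 was called (background 3.65%), and it was higher in responders. On Day 17 the count was 0 (background 0.264%), with 2 genes at an unadjusted p under 0.05, and on Day 24 it was again 0 (background 0.297%), with 4 genes at an unadjusted p under 0.05, both by edgeR and with 0 called by DESeq2, limma or the Wilcoxon test. The Day 17 background rests on 33 genes, which became 0 with the ear tag series as a covariate. The Day 24 background rests on 37 genes, which became 95 without library D24_7224 and 3 with the ear tag series as a covariate. On the TPM scale the median of all genes itself lay lower in responders, by -0.653 on Day 4 and -0.61 on Day 9 (log2 of TPM + 0.1), and limma called 2 genes lower on Day 4, Cd274 and Tox, and 1 on Day 9, Cd274. Pdcd1 and Lag3 were not tested on TPM. Levels below are TMM-scaled CPM, and differences are log2 folds of these counts unless TPM is named.

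**Figure D3:**
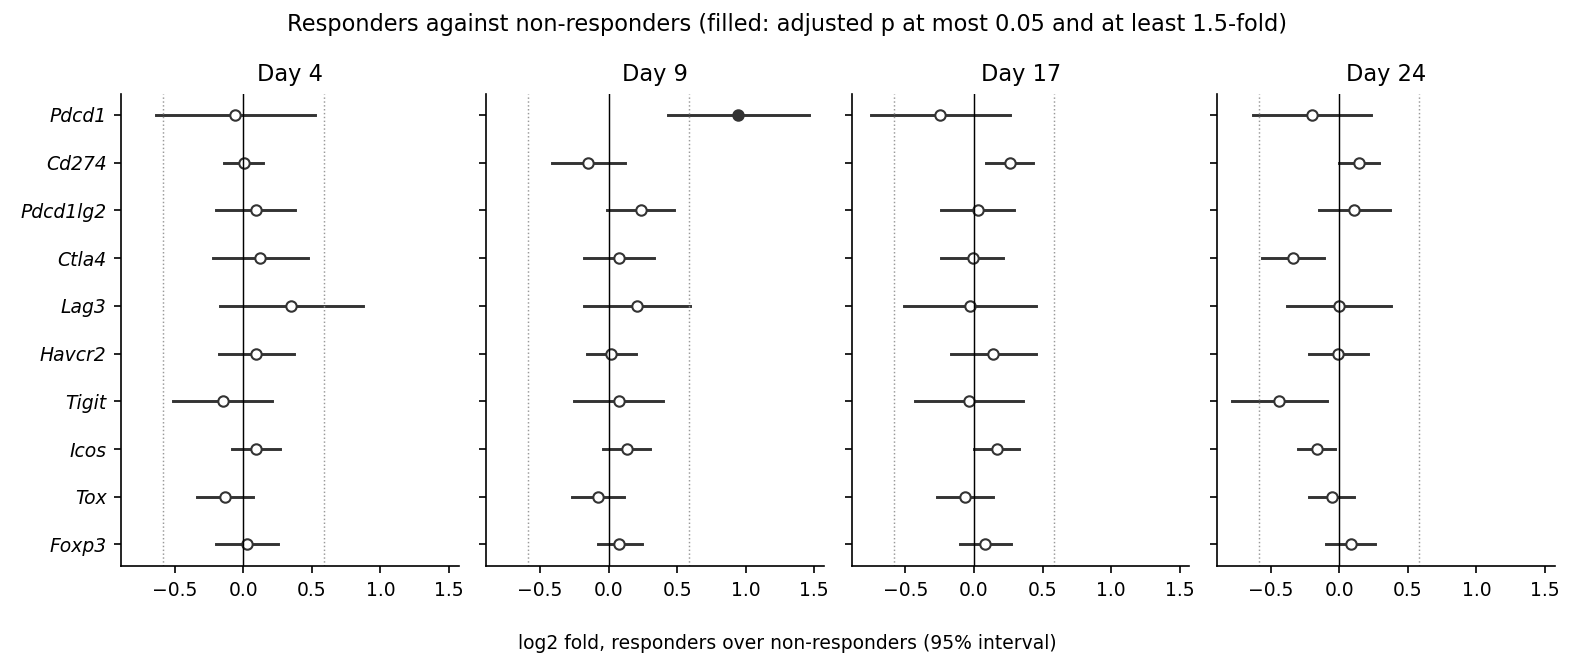
Log2 fold of responders over non-responders (x axis, with 95% intervals) for each gene on Days 4, 9, 17 and 24, filled where the adjusted p was at most 0.05 and the fold at least 1.5, with dotted lines at 1.5-fold. Pdcd1 on Day 9, at 0.95, is the filled point.

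Pdcd1, which encodes the receptor bound by the drug, was higher in the blood of responders on Day 9. Its TMM-scaled level on Day 9 was 0.0448, 0.194 and 0.707 CPM (lowest, median and highest of 15) in responders and 0.0226, 0.135 and 0.276 CPM (of 30) in non-responders. The upper part of the responder range stood alone, since 7 responders lay above every non-responder, whereas the lower part overlapped. These Day 9 values rest on 2 to 19 counts per responder library and 1 to 15 per non-responder library. The difference was 0.95 on the log2 scale, or 1.93-fold (SE 0.26, adjusted p = 0.00653 by edgeR's quasi-likelihood test), with 11 of 15 responders above the median of non-responders. Leaving out any of the 45 mice kept the call, with log2 values from 0.83 to 1.04.

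The Pdcd1 difference went with the ear tag series. Among 4-digit mice the Day 9 levels were 0.0807, 0.311 and 0.707 CPM in 11 responders and 0.0661, 0.153 and 0.276 CPM in 7 non-responders. In the 3-digit series they were 0.0448, 0.104 and 0.154 CPM in 4 responders and 0.0226, 0.131 and 0.227 CPM in 23 non-responders. The high responders were thus all in the 4-digit series, and the 4 responders of the 3-digit series lay within the non-responder range. Within 4-digit mice the log2 difference was 1.03 (SE 0.38, adjusted p = 0.329), and within 3-digit mice it was -0.43 (SE 0.42, adjusted p = 0.791). With the series as a covariate it was 0.495 (SE 0.29, adjusted p = 0.385), so the call on Day 9 was lost in each of these fits. Over all genes they called 0 of 11884 in 4-digit mice, 347 of 13629 in 3-digit mice and 273 of 12608 with the covariate. As 0 of all genes were called in 4-digit mice, the lost call there was not particular to Pdcd1, whose value was 1.03 against the pooled 0.95. Why the call was lost was not tested.

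On the other days Pdcd1 was not called between the groups. On Day 4 it lay at 0.0662, 0.145 and 0.299 CPM in responders and at 0, 0.161 and 0.434 CPM in non-responders. On Day 17 it lay at 0.0529, 0.152 and 0.350 CPM in responders and at 0.0827, 0.194 and 0.659 CPM in non-responders. On Day 24 the values were 0, 0.177 and 0.365 CPM in responders and 0, 0.179 and 0.409 CPM in non-responders. The ranges of both groups overlapped on each day, and responders differed by -0.059, -0.25 and -0.20 on Days 4, 17 and 24 (adjusted p = 0.93, 0.585 and 0.615). From Day 4 to Day 9 Pdcd1 rose in responders by 0.82 on the log2 scale (SE 0.31, adjusted p = 0.0376, higher in 10 of 15 mice), a call that was lost in 8 of 15 fits without 1 mouse, those without the mouse of library D9_322, D9_7201, D9_7202, D9_7205, D9_7221, D9_7226, D9_7228 or D9_7229, with values from 0.68 to 0.95 over the 15 fits. In non-responders the Day 9 change was -0.21 (SE 0.20, adjusted p = 0.405). This course went with the ear tag series too, since Pdcd1 was above its own Day 4 on Day 9 in 6 of 7 non-responders of the 4-digit series but in 8 of 22 of the 3-digit series, and in 8 of 11 and 2 of 4 responders. The 4-digit medians went from 0.125 to 0.153 CPM in non-responders and from 0.148 to 0.311 CPM in responders. The change from Day 4 was not tested within each series. By Day 17 Pdcd1 had risen in non-responders by 0.47 (SE 0.19, adjusted p = 0.0389, higher in 21 of 29 mice), and this call was lost in 8 of 30 fits without 1 mouse, those without the mouse of library D17_306, D17_313, D17_317, D17_324, D17_325, D17_7218, D17_7220 or D17_7222. Both calls were also lost when genes with at least 1 count were all tested (adjusted p = 0.0646 and 0.099). On Day 17 Pdcd1 was above its own Day 4 in 7 of 7 non-responders of the 4-digit series. In the 3-digit series this held for 14 of 22. The non-responder medians went from 0.125 to 0.248 CPM in the 4-digit series and from 0.16 to 0.18 CPM in the 3-digit series.

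Cd274, the gene of the PD-L1 ligand, rose early in both response groups. On Day 4 it lay at 5.36, 6.82 and 8.45 CPM in responders and 4.77, 6.55 and 9.86 CPM in non-responders, and on Day 9 at 6.16, 8.57 and 17.7 CPM and 6.13, 11.0 and 19.3 CPM. Most mice moved up, 12 of 15 responders and 28 of 29 non-responders, although the ranges of the days overlapped. The rise was 0.52 in responders (SE 0.12, adjusted p = 0.000625) and 0.65 in non-responders (SE 0.073, adjusted p = 1.51e-13) on the log2 scale, and the difference between these rises was -0.14 (SE 0.13, adjusted p = 1). On the TPM scale the responder value was 0.42 and was not called (adjusted p = 0.679), while the rise in non-responders was called (0.53). On Day 17 Cd274 lay at 5.87, 9.24 and 13.3 CPM in responders, still 0.44 above Day 4 (SE 0.12, adjusted p = 0.00538, higher in 13 of 14 mice). Non-responders then lay at 5.12, 7.85 and 11.0 CPM, 0.16 above Day 4 (SE 0.073, adjusted p = 0.0566), a change that passed the test with DESeq2 (0.172, adjusted p = 0.0432), with haemoglobin genes removed (0.179, adjusted p = 0.0377) and in 13 of 30 fits without 1 mouse. By Day 24 the levels were 5.61, 8.06 and 10.9 CPM in responders and 5.91, 7.21 and 10.3 CPM in non-responders. Neither change from Day 4 passed the test (0.29, adjusted p = 0.0806, and 0.12, adjusted p = 0.155). On TPM the latter change was -0.311 and was called lower (adjusted p = 0.0493), with the median of all genes at -0.388.

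The Day 9 level of Cd274 went with the ear tag series in both response groups. On Day 9 responders lay at 10.4 to 17.7 CPM (median 14.4, n = 4) in the 3-digit series and at 6.16 to 9.47 CPM (median 8.00, n = 11) in the 4-digit series, without overlap. Non-responders lay at 6.47 to 19.3 CPM (median 11.4, n = 23) and 6.13 to 8.56 CPM (median 8.02, n = 7). Within the 3-digit series Cd274 lay above its own Day 4 level in 4 of 4 responders and 22 of 22 non-responders, and within the 4-digit series in 8 of 11 and 6 of 7. The order was the other way on Day 17, when 4-digit non-responders lay at 8.47 to 11.0 CPM and 3-digit non-responders at 5.12 to 8.48 CPM. On Days 17 and 24, 7 and 7 of 7 non-responders of the 4-digit series lay above their own Day 4. In the 3-digit series 14 and 13 of 22 did. Of responders, 10 of 10 and 9 of 11 did in the 4-digit series and 3 and 4 of 4 in the 3-digit series. By Day 17 the responder medians went from 6.82 to 9.78 CPM and from 6.63 to 7.00 CPM in these series. These series values were read after the split was seen and were not tested.

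Cd274 did not pass the test between response groups on any day. On Day 17 responders differed by 0.26 (SE 0.083, adjusted p = 0.0679), with 10 of 14 responders above the non-responder median. This value was 0.070 with the ear tag series as a covariate, 0.10 in 4-digit mice alone and 0.011 in 3-digit mice alone. On Day 24 the difference was 0.15 (SE 0.072, adjusted p = 0.201) and on Day 9 it was -0.15 (SE 0.13, adjusted p = 0.537). By ear tag series, responders had the higher Day 9 median among 3-digit mice, 14.4 against 11.4 CPM. Among 4-digit mice the medians were 8.00 and 8.02 CPM, so the pooled direction did not hold within both series.

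Pdcd1lg2, the gene of the PD-L2 ligand, had no called change in TMM-scaled counts. Its group medians lay between 0.485 and 0.608 CPM over all 8 groups of response and day, and single libraries ran from 0 to 1.12 CPM. The 0 belongs to library D24_7224, which stood apart. The changes from Day 4 were between -0.083 and 0.086 on the log2 scale in both groups, with adjusted p from 0.528 to 0.881, and the 95% interval on Day 9 was -0.28 to 0.12 in non-responders. On Day 9 responders differed from non-responders by 0.23 (SE 0.12, adjusted p = 0.231). With TPM, limma called Pdcd1lg2 lower in non-responders by Day 17 (-0.261, adjusted p = 0.0417) and by Day 24 (-0.256, adjusted p = 0.0374), with the median of all genes at -0.315 and -0.388. With libraries scaled to their CD3 counts it was called higher on Day 9 in responders (0.607, adjusted p = 0.00472) and on Days 9, 17 and 24 in non-responders (0.482, 0.323 and 0.291, adjusted p = 0.000148, 0.0118 and 0.0274). On that scale the median of all genes was 0.568 on Day 9 in responders (background 85.5%). In non-responders it was 0.589, 0.386 and 0.281 (background 94.1%, 85.3% and 71.1%). The direction of Pdcd1lg2 on either scale was thus that of the median of all genes. Cd274 and Pdcd1lg2 were not tested against each other.

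Havcr2, which encodes the TIM-3 receptor found on exhausted T cells and on myeloid cells, rose in both groups by Day 9, and by Day 24 its TMM-scaled level was near that of Day 4. On Day 4 it lay at 0.940, 1.27 and 2.08 CPM in responders and 0.662, 1.33 and 2.34 CPM in non-responders, and on Day 9 at 1.66, 1.90 and 2.76 CPM and 1.27, 2.00 and 2.85 CPM. The medians of Day 9 lay above most Day 4 libraries, and the ranges overlapped. Havcr2 rose by 0.54 in responders (SE 0.16, adjusted p = 0.00711) and by 0.60 in non-responders (SE 0.097, adjusted p = 7.39e-08), with 12 of 15 and 25 of 29 mice above their own Day 4. On the TPM scale these values were 0.37 (adjusted p = 0.758) and 0.43, of which the latter was called, and by Day 17 the non-responder value was 0.152 (adjusted p = 0.332). On Day 17 the values were 1.12, 1.73 and 4.44 CPM in responders and 0.849, 2.09 and 3.57 CPM in non-responders, which were 0.66 (SE 0.16, adjusted p = 0.00165) and 0.60 (SE 0.098, adjusted p = 1.79e-07) above Day 4. On Day 24 they were 0.929, 1.34 and 1.83 CPM and 0.648, 1.43 and 1.92 CPM, -0.076 and 0.008 from Day 4 on the log2 scale. The non-responder value on Day 24 was called lower on TPM (-0.313, adjusted p = 0.0381), where the median of all genes was -0.388. It was called higher per CD3 transcript (0.27, adjusted p = 0.0301), where that median was 0.281 and 71.1% of all genes were called. Havcr2 was not called between response groups on any day, the largest difference being 0.14 on Day 17 (SE 0.15, adjusted p = 0.624).

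Ctla4, whose product competes with CD28 for CD80 and CD86, rose in non-responders. Their levels were 0.209, 0.691 and 0.930 CPM on Day 4, 0.448, 0.852 and 1.29 CPM on Day 9, 0.524, 0.927 and 1.44 CPM on Day 17 and 0.712, 0.977 and 1.34 CPM on Day 24. The lowest non-responder on Day 24 was thus above the median of Day 4. The rise was 0.38 by Day 9 (SE 0.096, adjusted p = 0.000491), 0.48 by Day 17 (SE 0.097, adjusted p = 2.08e-05) and 0.61 by Day 24 (SE 0.096, adjusted p = 1.38e-07), with 20, 25 and 28 of 29 mice above their own Day 4. On the TPM scale, where the median of all genes fell by 0.315 by Day 17 and by 0.388 by Day 24 in non-responders, the Ctla4 values were 0.183, 0.024 and 0.078 on Days 9, 17 and 24 with a pseudocount of 0.1, and -0.007 on Day 17 with a pseudocount of 1. Ctla4 was not called on TPM on any of these days (adjusted p = 0.368, 0.87 and 0.552 with a pseudocount of 0.1).

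In responders Ctla4 had no called change in TMM-scaled counts. The levels were 0.265, 0.666 and 1.17 CPM on Day 4, 0.449, 0.954 and 1.31 CPM on Day 9, 0.581, 0.900 and 1.47 CPM on Day 17 and 0.191, 0.786 and 1.16 CPM on Day 24. The changes from Day 4 did not pass the test (0.35, 0.36 and 0.16 on the log2 scale, adjusted p = 0.152, 0.147 and 0.564), with 11 of 15, 9 of 14 and 10 of 15 mice above their own Day 4. These pooled values held unlike courses by ear tag series. In 4 responders of the 3-digit series the median went from 0.319 CPM on Day 4 to 0.952 CPM on Day 24, with 4 of 4 mice above their own Day 4, and in 11 of the 4-digit series from 0.908 to 0.760 CPM, with 6 of 11 above. The change was not tested within each series. On Day 24 Ctla4 was lower in responders by 0.34 (SE 0.11, adjusted p = 0.0465), or 0.792-fold, which is short of the 1.5-fold asked for, and 4 of 15 responders lay above the non-responder median. Within 4-digit mice this difference was -0.51 (adjusted p = 0.317) and within 3-digit mice -0.14 (adjusted p = 0.734). The Day 24 change of responders was 0.47 lower than that of non-responders (SE 0.19, p = 0.014, adjusted p = 0.137). For Days 9 and 17 this difference of changes was -0.055 and -0.137 (SE 0.19 for both, p = 0.773 and 0.475 by the interaction test). A rise in non-responders alone was thus not shown on those days.

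Lag3, the gene of a receptor for MHC class II, was measured near its floor. Group medians were 0.227, 0.280, 0.254 and 0.250 CPM in responders on Days 4, 9, 17 and 24 and 0.172, 0.248, 0.236 and 0.227 CPM in non-responders, with single libraries from 0 to 0.813 CPM. The ranges overlapped throughout. Lag3 rose in non-responders by Day 9 by 0.41 (SE 0.17, adjusted p = 0.0376, higher in 22 of 29 mice), a call that was lost without the mouse of library D9_7203, D9_7218, D9_7220 or D9_7225, where adjusted p reached 0.0665, or with genes of at least 1 count all tested (adjusted p = 0.106). In responders the Day 9 change was 0.29 (SE 0.26, adjusted p = 0.433).

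Tigit, whose product competes with CD226 for CD155, had no called change in TMM-scaled counts. Its medians were 0.303, 0.334, 0.356 and 0.216 CPM in responders on Days 4, 9, 17 and 24 and 0.380, 0.333, 0.303 and 0.265 CPM in non-responders, with single libraries from 0 to 1.03 CPM. Both groups thus had their lowest median on Day 24. The Day 24 change in responders was -0.47 (SE 0.19, adjusted p = 0.068), and it passed the test in the fits without the mouse of library D24_7208 or D24_7229. In non-responders it was -0.20 (SE 0.14, adjusted p = 0.247), and responders differed from non-responders on Day 24 by -0.44 (SE 0.17, adjusted p = 0.0942). With TPM, limma called Tigit lower in non-responders by Day 17 (-0.295, adjusted p = 0.0482) and by Day 24 (-0.445, adjusted p = 0.00258). The median of all genes there was -0.315 and -0.388. Per CD3 transcript Tigit was called higher on Day 9 in responders (0.684, adjusted p = 0.00218). It was also called higher on Days 9 and 17 in non-responders (0.514 and 0.405, adjusted p = 0.000502 and 0.00713). The median of all genes was then 0.568 in responders (background 85.5%) and 0.589 and 0.386 in non-responders (background 94.1% and 85.3%). The direction of Tigit on either scale was thus that of the median of all genes.

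Icos, a costimulatory receptor prominent on follicular helper and regulatory T cells, had 1 called change in TMM-scaled counts. Medians ran from 2.62 to 3.35 CPM in responders and from 2.61 to 2.96 CPM in non-responders, and single libraries from 1.53 to 4.88 CPM. The called change was that of non-responders by Day 24, 0.20 on the log2 scale (SE 0.063, adjusted p = 0.00626, higher in 21 of 29 mice), which on the TPM scale was -0.19 (adjusted p = 0.171) with the median of all genes at -0.388. In responders the Day 24 change was -0.050 (SE 0.10, adjusted p = 0.777), and the difference of these changes was -0.26 (SE 0.11, p = 0.0246, adjusted p = 0.185). With libraries scaled to their CD3 counts Icos was called higher on Days 9 and 17 in responders (0.567 and 0.467, adjusted p = 1.31e-05 and 0.00155). In non-responders it was called higher on Days 9, 17 and 24 (0.581, 0.503 and 0.471, adjusted p = 5.06e-14, 1.77e-10 and 9.96e-09). The median of all genes on these days was 0.568 and 0.278 in responders (background 85.5% and 41.8%). For non-responders that median was 0.589, 0.386 and 0.281 (background 94.1%, 85.3% and 71.1%).

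Tox, a nuclear factor of T cell development and exhaustion, fell by Day 9 in nearly every mouse. On Day 4 it lay at 1.74, 2.01 and 3.29 CPM in responders and 1.59, 2.51 and 3.51 CPM in non-responders, and on Day 9 at 1.04, 1.59 and 2.43 CPM and 1.12, 1.74 and 2.15 CPM. All 15 responders were below their own Day 4 level on Day 9, as were 27 of 29 non-responders, although the ranges of the days overlapped. Tox fell by 0.49 in responders (SE 0.12, adjusted p = 0.0018) and by 0.57 in non-responders (SE 0.072, adjusted p = 2.11e-11). On the TPM scale these values were -0.31 (adjusted p = 0.641) and -0.44, of which the latter was called. On Day 17 it lay at 1.05, 1.73 and 2.59 CPM in responders, with a change of -0.36 (SE 0.13, adjusted p = 0.0289) that was lost without the mouse of library D17_7208 (adjusted p = 0.0763) and was -0.026 on TPM (adjusted p = 0.953), and at 1.13, 1.77 and 3.27 CPM in non-responders, a change of -0.44 (SE 0.072, adjusted p = 1.67e-07). On Day 24 it lay at 1.14, 1.85 and 3.10 CPM in responders (-0.23, SE 0.12, adjusted p = 0.189) and 1.43, 1.94 and 3.01 CPM in non-responders (-0.33, SE 0.072, adjusted p = 7.28e-05). By ear tag series, 20 of 22 non-responders of the 3-digit series but 3 of 7 of the 4-digit series were below their own Day 4 on Day 24. The response groups did not differ by the test on any day, with log2 differences from -0.14 to -0.055. On Day 4, at -0.14, the medians within each ear tag series ran the other way. They were 2.82 CPM in responders and 2.57 CPM in non-responders of the 3-digit series, and 1.94 and 1.80 CPM in the 4-digit series.

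Foxp3, the defining factor of regulatory T cells, fell alongside Tox. It lay at 1.66, 2.26 and 4.00 CPM on Day 4, 1.25, 1.94 and 2.65 CPM on Day 9, 1.43, 1.93 and 2.50 CPM on Day 17 and 1.24, 2.06 and 3.52 CPM on Day 24 in responders. In non-responders it lay at 1.78, 2.26 and 4.50 CPM, 1.38, 1.82 and 2.35 CPM, 1.08, 1.80 and 2.59 CPM, and 0.951, 1.90 and 2.78 CPM on the same days. The later days lay lower but overlapped with Day 4 in both groups. Foxp3 fell in non-responders by 0.37 by Day 9 (SE 0.072, adjusted p = 5.77e-06), by 0.43 by Day 17 (SE 0.073, adjusted p = 5.09e-07) and by 0.34 by Day 24 (SE 0.072, adjusted p = 6.05e-05), with 26, 25 and 24 of 29 mice below their own Day 4. By ear tag series the days differed, since on Day 17 Foxp3 was below Day 4 in 22 of 22 non-responders of the 3-digit series but above it in 4 of 7 of the 4-digit series, against 1 of 7 above on Days 9 and 24. In responders it fell by 0.35 by Day 17 (SE 0.12, adjusted p = 0.0265), a call lost without the mouse of library D17_311, D17_315, D17_7210 or D17_7227 and on TPM (-0.041, adjusted p = 0.918). Its Day 9 change in responders was -0.30 (SE 0.12, adjusted p = 0.055), and with the mouse as a block it was -0.29 (adjusted p = 0.0407), which passed, as it did with DESeq2 (adjusted p = 0.0474), with haemoglobin genes removed (adjusted p = 0.0492), with the ear tag series as a covariate (adjusted p = 0.0452) and in 5 of 15 fits without 1 mouse. Of the 10 genes, Foxp3 alone had estimated counts that were not whole, in 21 libraries.

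**Figure D4:**
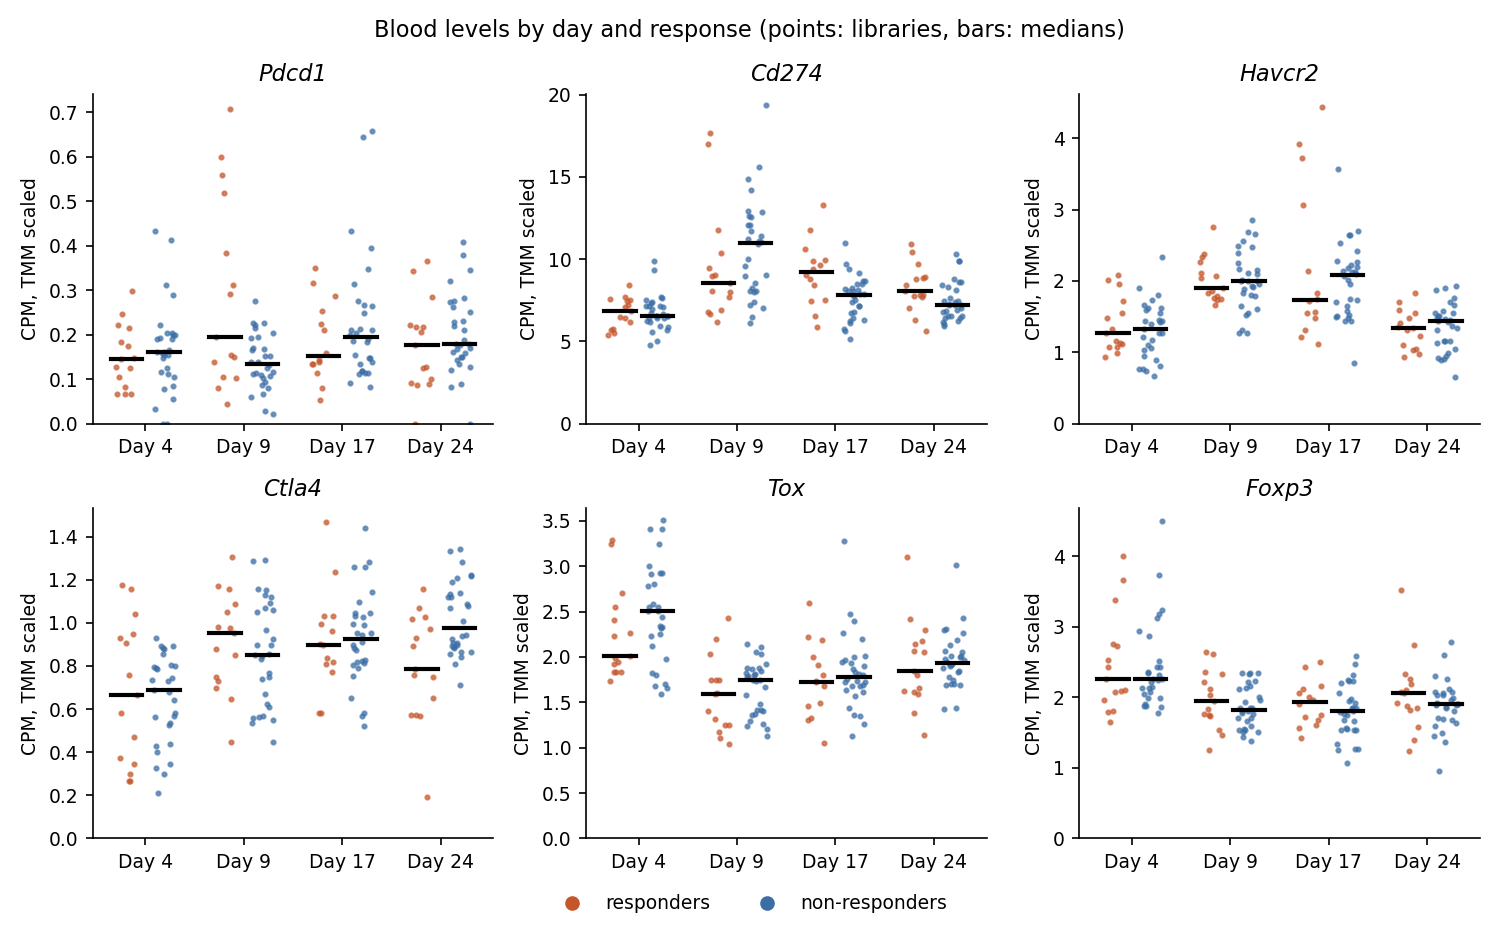
TMM-scaled levels in CPM of 6 genes in each library, by day and response, with bars at group medians. Tox medians drop from 2.01 and 2.51 CPM on Day 4 to 1.59 and 1.74 CPM on Day 9, Cd274 and Havcr2 medians rise over the same days, and several responders lie above all non-responders for Pdcd1 on Day 9.

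By Day 9 T cell and B cell transcripts had fallen, and monocyte and neutrophil transcripts had risen. The counts of called markers stand against backgrounds of 27.7%, 25.6% and 17.4% of all genes in responders and 50.8%, 46.1% and 48.7% in non-responders on Days 9, 17 and 24. By Day 9 all 12 T cell markers were lower in both groups, with a median log2 change of -0.54 in responders and -0.58 in non-responders, against 0.008 and -0.014 over all genes. Their summed level ran from 159 to 270 CPM on Day 4 and from 97.2 to 160 CPM on Day 9 in responders, and from 152 to 271 and 105 to 154 CPM in non-responders, and no marker was at 0 in any group. Monocyte markers moved the other way, with 5 of 8 higher in responders and 8 of 8 in non-responders by Day 9, and summed levels of 98.1 to 273 and 187 to 440 CPM in responders and 95.2 to 195 and 194 to 484 CPM in non-responders. Neutrophil markers were higher in 5 of 8 in responders and 7 of 8 in non-responders, with summed levels of 154 to 457 and 215 to 507 CPM in responders and 110 to 299 and 203 to 636 CPM in non-responders on Days 4 and 9. B cell markers were lower in 4 of 6 in responders and 6 of 6 in non-responders by Day 9, with median log2 changes of -0.331 and -0.304, and their summed levels ran from 437 to 678 and 335 to 466 CPM in responders and from 457 to 737 and 347 to 524 CPM in non-responders on Days 4 and 9. NK cell markers were lower in 1 of 6 in either group by Day 9, but in 6 of 6 in both by Day 24, with medians of -0.618 and -0.611 and summed levels of 11.7 to 20.2 CPM in responders and 8.55 to 25.1 CPM in non-responders, against 12.5 to 40.2 and 14.5 to 36.3 CPM on Day 4. Of 5 dendritic cell markers tested, 1 was higher and 1 lower in responders and 3 were higher and 1 lower in non-responders by Day 9 (medians 0.205 and 0.479), while their summed level over 6 markers had a lower median, 29.5 against 38.6 CPM in responders and 30.5 against 41.0 CPM in non-responders. On Days 17 and 24 at most 1 of them was higher and 1 lower in either group. The later days differed for the other lists, with several counts near or below the background. In responders T cell markers were lower in 8 and 9 of 12 on Days 17 and 24 (medians -0.277 and -0.383), B cell markers in 5 and 1 of 6, with 1 higher on Day 24 (medians -0.268 and 0.031), monocyte markers were 1 higher and 1 lower, then 0 higher and 2 lower (medians -0.063 and -0.433), and neutrophil markers 6 higher and 1 lower, then 1 and 1 (medians 0.534 and -0.163). In non-responders T cell markers were lower in 12 and 11 of 12 (medians -0.38 and -0.30), B cell markers in 5 and 3 of 6 (medians -0.248 and -0.157), monocyte markers were 5 higher, then 2 higher and 2 lower (medians 0.27 and -0.119), and neutrophil markers 6 higher and 1 lower, then 4 higher (medians 0.665 and 0.434). The part of these cell type markers in the changes of the 10 genes was not tested.

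Scaling each library to the summed counts of Cd3d, Cd3e and Cd3g, the signalling chains of the T cell receptor, gives levels per CD3 transcript rather than per library. On this scale the median of all genes itself moved up, by 0.568, 0.278 and 0.28 on Days 9, 17 and 24 in responders and by 0.589, 0.386 and 0.281 in non-responders. Of the 10 genes, 9, 4 and 1 were then higher than on Day 4 in responders (background 85.5%, 41.8% and 44.7%) and 9, 8 and 7 in non-responders (background 94.1%, 85.3% and 71.1%). Tox, which fell per library, was not called per CD3 transcript, at 0.073 on Day 9 in responders (SE 0.10, adjusted p = 0.491) and 0.054 in non-responders (SE 0.058, adjusted p = 0.36). Foxp3, which also fell per library, was higher per CD3 transcript on Day 9, by 0.27 (SE 0.11, adjusted p = 0.0246) and 0.25 (SE 0.061, adjusted p = 8.1e-05), the call in responders being lost without the mouse of library D9_322 or D9_7229, and near 0 later, at -0.026 on Day 17 and -0.048 on Day 24 in non-responders. Both lay below the median of all genes on each day.

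Per CD3 transcript Cd274, Havcr2, Lag3 and Ctla4 lay above that median on Day 9 in both groups, and in responders so did Pdcd1, Tigit and Pdcd1lg2. Here Cd274 was higher by 1.05 in responders (SE 0.14, adjusted p = 1.67e-08) and 1.26 in non-responders (SE 0.091, adjusted p = 6.08e-25), and Havcr2 by 1.09 (SE 0.20, adjusted p = 2.42e-06) and 1.20 (SE 0.11, adjusted p = 4.69e-18). Ctla4 was higher by 0.87 (SE 0.20, adjusted p = 9.07e-05) and 0.95 (SE 0.11, adjusted p = 2.16e-13), with 0.596 on Day 17 in responders (adjusted p = 0.0143) and 0.83 and 0.86 on Days 17 and 24 in non-responders. Lag3 was higher by 0.847 in responders (SE 0.28, adjusted p = 0.0048) and by 1.03 in non-responders (SE 0.17, adjusted p = 2.79e-08). Pdcd1 was higher by 1.34 on Day 9 in responders (SE 0.32, adjusted p = 0.000147) and by 0.41 in non-responders (SE 0.20, adjusted p = 0.038), the latter call being lost in 10 of 30 fits without 1 mouse. Later the order was the other way, with 0.863 and 0.639 on Days 17 and 24 in non-responders, both called (adjusted p = 2.34e-05 and 0.00189), and 0.541 and 0.487 in responders, neither called (adjusted p = 0.169 and 0.195), and the groups were not tested against each other on this scale. Cd274, Pdcd1lg2 and Havcr2 are also expressed by myeloid cells, for which a level per CD3 transcript is no level per cell.

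**Figure D5:**
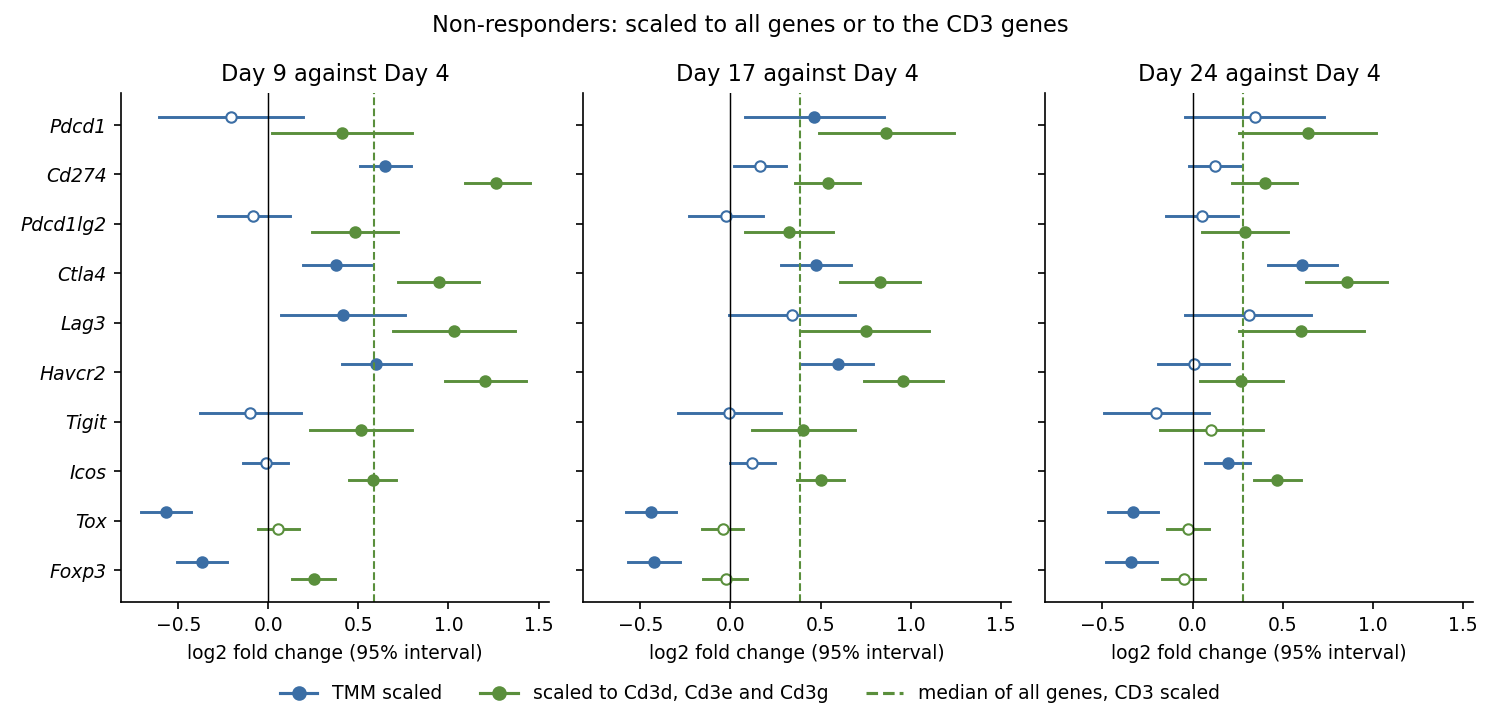
Log2 changes from Day 4 in non-responders (x axis, with 95% intervals) under TMM scaling and after scaling to Cd3d, Cd3e and Cd3g, filled where the adjusted p was at most 0.05, with a dashed line at the median of all genes on the CD3 scale. Tox and Foxp3 move from left of 0 to near 0 or just right of it, and Cd274, Havcr2, Lag3 and Ctla4 lie right of the dashed line on Day 9.

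Other receptors of the same pathways were read beside the 10 genes. By Day 9, when 27.7% of all genes tested were called in responders and 50.8% in non-responders, costimulatory receptors were lower in 4 of 8 genes in responders and 6 of 8 in non-responders, with no other member called. Over all genes, 1782 of 12560 were lower in responders and 3575 of 13009 in non-responders. Cd28, the receptor on which PD-1 acts, fell by 0.36 in responders (SE 0.066, adjusted p = 2.52e-05) and by 0.47 in non-responders (SE 0.042, adjusted p = 1.52e-18). Of 10 other inhibitory receptors, 3 were higher and 2 lower in responders (background 27.7%) and 4 higher and 3 lower in non-responders (background 50.8%). Cd244a, the receptor 2B4 of NK and T cells, rose by 0.77 (SE 0.14, adjusted p = 1.84e-05) and 0.98 (SE 0.089, adjusted p = 5.41e-18), and Cd96, which shares its ligand CD155 with TIGIT, fell by 0.60 (SE 0.092, adjusted p = 2.35e-06) and 0.64 (SE 0.061, adjusted p = 9.6e-17).

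Among 10 of 14 ligands and partners that could be tested, 1 was higher in responders (background 27.7%) and 5 were higher and 1 lower in non-responders (background 50.8%) by Day 9, a share below the background in responders and near it in non-responders. Cd80, a ligand of CTLA-4 and CD28, rose in non-responders by 0.69 (SE 0.12, adjusted p = 4.53e-07) and Ceacam1, a partner of TIM-3, by 0.24 (SE 0.053, adjusted p = 4.8e-05). Of 9 genes of PD-1 signalling and the interferon gamma pathway, 3 were higher in both groups, Ifngr1, Ifngr2 and Irf1, and 2 were lower in responders and 3 in non-responders, against the same backgrounds. Irf1, an interferon-induced transcription factor, rose by 0.27 in responders (SE 0.066, adjusted p = 0.00121, 11 of 15 mice) and by 0.44 in non-responders (SE 0.035, adjusted p = 1.42e-20, 29 of 29 mice). Ptpn6, the phosphatase SHP-1, fell by 0.16 (SE 0.048, adjusted p = 0.0089) and 0.11 (SE 0.033, adjusted p = 0.00366).

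Of 12 transcription factors of exhaustion and memory tested, 3 were higher and 2 lower in responders (background 27.7%) and 6 higher and 4 lower in non-responders (background 50.8%) by Day 9. Tcf7, a factor of naive and memory T cells, fell by 0.42 (SE 0.078, adjusted p = 3.86e-05) and 0.45 (SE 0.050, adjusted p = 9.96e-14), and Prdm1, the gene of Blimp-1, rose by 0.60 (SE 0.15, adjusted p = 0.00175) and 0.78 (SE 0.094, adjusted p = 3.58e-12). Of 6 other regulatory T cell genes tested, 1 was higher and 1 lower in responders and 1 higher and 3 lower in non-responders, shares near the same backgrounds. The higher gene was Nt5e, which encodes the ectonucleotidase CD73, by 1.02 (SE 0.23, adjusted p = 0.000455) and 1.07 (SE 0.13, adjusted p = 7.1e-12), and Gpr83 fell by 0.49 (SE 0.17, adjusted p = 0.025) and 0.60 (SE 0.11, adjusted p = 1.92e-06).

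Across the 178 libraries the genes most like each member were named by Spearman's rho of the TMM-scaled log2 CPM, given as a description, since libraries of a mouse and of a day share their source. Havcr2 went with Grk3 (0.819), Arhgef10l (0.818) and Clec4a3 (0.814), and Cd274 with Plekhs1 (0.748), Plpp1 (0.731) and Naip1 (0.717). Tox went with the T cell receptor genes Trbc2 (0.709) and Trac (0.706) and with Itm2a (0.705), and Foxp3 with Lck (0.636), Cd4 (0.579) and Thy1 (0.557). Tigit went with Ccl5 (0.464), Il2rb (0.463) and Racgap1 (0.441). For the other genes the highest values were 0.511 for Ctla4 (Rb1cc1), 0.497 for Icos (Ipcef1), 0.426 for Lag3 (Vim), 0.344 for Pdcd1lg2 (Ftx) and 0.324 for Pdcd1 (Vgll4).

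With the mean of each group of response and day removed, Havcr2 was most like Arhgef10l (0.714), Tox most like Itm2a (0.656) and Cd3g (0.651), and Foxp3 most like Lck (0.593) and Cd4 (0.569). Cd274 was then most like Nt5e (0.724), Plk2 (0.701) and Trp53inp2 (0.683). Tigit stayed nearest to Il2rb (0.449) and Ccl5 (0.433), genes of cytotoxic lymphocytes.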

How the data were processed

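Bulk poly(A) RNA of blood, amplified with a SMARTer kit, was sequenced by the authors, and the submitters' processing notes name STAR and mm10; the counting tool and annotation are not given in the sources used here, but the gene IDs match GENCODE M21 (GRCm38). The deposited values are estimated counts per gene, rounded here to whole numbers because some were not whole, and TPM, which the authors deposited with 2 decimals. Haemoglobin transcripts are part of both. Interval and test precision cover these samples only, and the counting floor differs between libraries with the counts outside haemoglobin. All columns of the count table were mapped to samples by ear tag and day.

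Groups follow the labels for response, day and ear tag. Library D17_7203 is labelled as a responder, against the non-responder label of the mouse on its other days, and was placed with non-responders. Counts were scaled by TMM, filtered with filterByExpr and tested with edgeR 4.0.16 (glmQLFit and glmQLFTest, two-sided) in R 4.3.3 with Benjamini-Hochberg adjustment over all genes tested. Responders were compared with non-responders on each day (adjusted p within 0.05, fold change 1.5 or more), and each later day with Day 4 within each response group, by the adjusted p alone. The difference of these changes was tested as an interaction over all libraries. The changes were also fitted with libraries scaled to the summed counts of 3 CD3 genes. Levels are CPM on TMM-scaled library sizes. SEs follow from the quasi-likelihood F statistic, with intervals at 95%. The procedures were tested on simulated counts with known changes.

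An ear tag marks the same mouse on different days, so the libraries are paired by animal; the mean correlation of same-mouse deviations from group means ranged from -0.067 to 0.113 over pairs of days. Libraries of different mice are separate animals. The 10 members were named throughout; from each other list, up to 3 called genes were named by smallest p for either direction, and for likeness the 3 genes of highest rho. The members and lists were chosen with earlier results of these data known. Alternatives were DESeq2 1.42.0 (Wald test), no filter on low counts, haemoglobin genes removed before scaling, limma 3.58.1 on log2(TPM + 0.1) or log2(TPM + 1) over genes of mean TPM of at least 0.1, a Wilcoxon test on TPM, the ear tag series as a covariate or each series alone, other thresholds, other T cell genes for scaling, the mouse as a block, library D17_7203 as a responder or left out, and each mouse left out in turn. Promoter windows were read from RefSeq with Python 3.11.15.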

Additional observations from a re-analysis of the deposited data

How the results depend on the processing

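The counts of called genes stayed within 1.5 times of the reported ones in 626 comparisons with an alternative and moved further in 30. These numbers include the fits without 1 mouse, 44 or 45 for each comparison of response groups and 15 or 30 for each change. A count of 0 that stayed at 0 was also taken as unchanged. The 626 are therefore not all changes of method. Between responders and non-responders on Day 4, where edgeR called 0, limma on log2(TPM + 0.1) called 2 and the Wilcoxon test on TPM 5. Over all 11660 genes this Wilcoxon test called 8445, and the limma fit, with a median of -0.653, also called most genes. In both fits the share called was lower among the 8 members tested than among all genes. On Day 9 the 1 call, Pdcd1, became 0 with the ear tag series as a covariate and within either series. Over all genes the 460 calls became 273 with the covariate, 347 in 3-digit mice and 0 in 4-digit mice. In 4-digit mice the Pdcd1 fold was no smaller than in the main fit. Pdcd1 was not tested on TPM, where limma with a pseudocount of 1 called 0 on Day 9 and the Wilcoxon test called 4 other genes, all lower. Over all 11807 genes these tests called 790 and 8881. On Day 24 the count between the groups was 1 without the fold threshold. On TPM the values of responders over non-responders turned negative for Cd274 on Day 4 (-0.698 by limma, -0.689 by Wilcoxon), and by Wilcoxon for Havcr2 (-0.597) and Foxp3 (-0.677) on Day 4 and for Havcr2 (-0.657) and Tigit (-0.661) on Day 9. Pdcd1 on Day 9 was -0.434 in 3-digit mice alone. The median of all genes on TPM was lower in responders on both days, as given in the report.

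In responders the change counts on Days 9 and 17 became 0 and 0 with limma at either pseudocount, and 1 and 1 with a fold threshold of 1.5. In non-responders this threshold gave 2, 1 and 1 on Days 9, 17 and 24. On TPM with pseudocounts of 0.1 and 1, the Day 24 changes of non-responders were -0.311 and -0.174 for Cd274, -0.256 and -0.071 for Pdcd1lg2, -0.313 and -0.103 for Havcr2 and -0.193 and -0.086 for Icos, and Ctla4 on Day 17 was -0.007 with a pseudocount of 1. The medians of all genes on Day 24 were -0.388 and -0.188 with these pseudocounts. The difference of the changes on Day 24 had 1 and 2 calls on TPM. Over all 11598 genes these fits called 2159 and 2001, with medians of 0.524 and 0.229. Scaled to CD3, the Day 24 count in responders was 3 with Trac, Trbc1, Trbc2 and Lat as the scale and 0 with the fold threshold. Non-responders had 4, 4 and 3 on Days 9, 17 and 24 with that threshold, and 4 and 3 on Day 24 on TPM. Over all 11667 genes the fits on TPM called 7714 and 7276. The cause of these shifts was not tested.

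Without 1 mouse each, the counts in responders ranged from 3 to 5, 3 to 4 and 0 to 1 on Days 9, 17 and 24, and in non-responders from 5 to 6, 4 to 7 and 4 to 4. Scaled to CD3 they ranged from 8 to 9, 4 to 5 and 1 to 2, and from 8 to 9, 8 to 8 and 5 to 7. The single Day 24 call was Tigit, without the mouse of library D24_7208 or D24_7229. With the mouse as a replicate block, Foxp3 fell in responders by Day 9 by 0.291 (adjusted p = 0.0407), and the pairing changed no other call. DESeq2, haemoglobin removal and the other label of library D17_7203 moved no count of the 10 genes past 1.5 times. Over all genes, the 33 calls between response groups on Day 17 became 71 with DESeq2 and 59 with that label. They became 0 with the ear tag series as a covariate, 0 in 4-digit mice alone and 1 in 3-digit mice alone. The 48 calls for the difference of changes on Day 17 became 88 with DESeq2 and 77 with that label.

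Pdcd1 and Lag3 had the lowest median counts, 9 and 12 per library, while the share of variance within groups from counting error was highest for Pdcd1lg2 (47.1%, against 40.7% for Lag3 and 37.5% for Pdcd1). The TPM tests leave Pdcd1 and Lag3 out because their mean TPM was below 0.1. No untreated mice were measured, so days after tumor injection and treatment cannot be told apart.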
